A study of Mus musculus with 30 samples.

Results

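The Hist1 cluster is a group of replication-dependent histone genes on mouse chromosome 13. Its members were taken as the protein-coding genes of GENCODE release M21 whose symbol starts with Hist1h, which gave 54 of 21951 protein-coding genes. They were chosen by name and not by signal. The 54 genes comprise 6 genes of the linker histone H1, 13 of H2A, 15 of H2B, 9 of H3 and 11 of H4. They lie between positions 21715763 and 23934851 of build mm10, in 4 blocks separated by gaps of over 100 kb. In chromosome order the blocks hold 18 genes over 121.8 kb, 5 genes over 8.51 kb, 29 genes over 233.4 kb, and a pair of genes, Hist1h2ba and Hist1h2aa, that lies apart from the rest.

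The study mapped histone marks in CK1750 and Tnm2, 2 cell lines from mouse lung adenocarcinoma, to follow what changes when the histone methyltransferases G9a and Glp are blocked. Each line was grown in culture with DMSO, the solvent, or with 1 µM UNC0638, a small molecule that inhibits G9a and Glp. The values below come from chromatin immunoprecipitation and sequencing of H3K27ac (histone H3 acetylated at lysine 27), for which the labels give 3 samples of CK1750 with DMSO and 2 samples of each other group. By the replicate numbers in the titles, the 3 CK1750 DMSO samples are 2 replicates, 1 of them sequenced again, and the 2 CK1750 UNC0638 samples carry the same number, so that list may rest on 1 replicate. Both Tnm2 groups have 2 replicates. The H3K9me2 and input DNA samples were not analysed here. All samples of a group point to 1 merged list of peaks, so there were 4 lists, no spread between replicates, and no test between groups. The groups are therefore the DMSO and UNC0638 cultures of CK1750 and the DMSO and UNC0638 cultures of Tnm2, each represented by 1 list. CK1750 and Tnm2 are each a single line, and the labels give no genotype. The number of reads behind a list is unknown.

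Replication-dependent histone genes supply the histones that package newly copied DNA, and dividing cells, tumour cells among them, transcribe them in S phase. They have no introns in their usual form, and their mRNAs end in a short stem-loop, bound by the stem-loop binding protein Slbp, in place of a poly(A) tail. Many H2A and H2B genes stand head to head and share the DNA between their start sites. H3K27ac is a mark of active promoters and enhancers. It sits on nucleosomes, and active promoters often have a start site free of nucleosomes with the mark on both sides.

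The promoter sequences of the member of each family with the highest mean score percentile over the 4 lists are shown first, since the peaks described below lie on or near them. The promoters of Hist1h1d and Hist1h1t, for which no list had a peak within 1 kb of the GENCODE start, follow. The Hist1h1d promoter shown is at its RefSeq start and lay under a peak in all 4 lists, so only that of Hist1h1t had none. Each runs 5′ to 3′ on the gene's strand from 250 bases before to 25 bases after the RefSeq start (assembly GRCm38.p6, the same build as mm10). Capitals mark matches on either strand to TATAAA (the TATA box), CCAAT (the CCAAT box), ATTTGCAT (the octamer bound by Pou2f1), AAACACA (the AC box of H1 promoters) and GGTCCG (part of the H4 subtype element). The positions are chr13:23738557-23738831 on the plus strand for Hist1h1c, a linker histone gene, and chr13:21833451-21833725 on the minus strand for Hist1h2ap. They are chr13:23621070-23621344, chr13:23745497-23745771 (both minus) and chr13:23530794-23531068 (plus) for Hist1h2be, Hist1h3c and Hist1h4h. For Hist1h1d and Hist1h1t they are chr13:23554782-23555056 and chr13:23695561-23695835, both on the plus strand.
Hist1h1c: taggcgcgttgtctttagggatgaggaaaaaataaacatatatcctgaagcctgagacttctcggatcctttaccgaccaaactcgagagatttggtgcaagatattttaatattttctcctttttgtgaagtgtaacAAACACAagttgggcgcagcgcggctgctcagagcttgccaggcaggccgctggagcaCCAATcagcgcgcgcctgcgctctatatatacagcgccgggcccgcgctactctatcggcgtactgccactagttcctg
Hist1h2ap: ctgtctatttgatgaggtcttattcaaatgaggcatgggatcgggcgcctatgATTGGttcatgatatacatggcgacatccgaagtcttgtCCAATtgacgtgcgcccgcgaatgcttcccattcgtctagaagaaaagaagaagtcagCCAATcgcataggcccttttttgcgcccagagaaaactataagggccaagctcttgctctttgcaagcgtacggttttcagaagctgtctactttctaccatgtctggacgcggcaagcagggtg
Hist1h2be: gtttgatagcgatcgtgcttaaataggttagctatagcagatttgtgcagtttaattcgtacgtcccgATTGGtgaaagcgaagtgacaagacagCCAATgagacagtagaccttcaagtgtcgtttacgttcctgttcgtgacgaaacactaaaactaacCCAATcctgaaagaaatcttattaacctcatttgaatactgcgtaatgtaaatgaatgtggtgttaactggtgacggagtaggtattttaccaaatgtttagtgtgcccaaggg
Hist1h3c: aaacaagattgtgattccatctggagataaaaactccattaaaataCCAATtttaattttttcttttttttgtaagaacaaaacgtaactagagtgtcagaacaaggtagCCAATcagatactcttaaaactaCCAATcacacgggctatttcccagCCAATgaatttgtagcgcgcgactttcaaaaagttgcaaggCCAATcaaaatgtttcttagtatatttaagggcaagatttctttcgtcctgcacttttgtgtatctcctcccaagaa
Hist1h4h: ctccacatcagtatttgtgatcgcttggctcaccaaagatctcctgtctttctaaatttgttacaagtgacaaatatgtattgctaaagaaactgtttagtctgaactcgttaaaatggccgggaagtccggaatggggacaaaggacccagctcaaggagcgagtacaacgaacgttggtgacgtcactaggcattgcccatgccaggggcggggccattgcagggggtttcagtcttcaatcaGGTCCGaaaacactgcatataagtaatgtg
Hist1h1d: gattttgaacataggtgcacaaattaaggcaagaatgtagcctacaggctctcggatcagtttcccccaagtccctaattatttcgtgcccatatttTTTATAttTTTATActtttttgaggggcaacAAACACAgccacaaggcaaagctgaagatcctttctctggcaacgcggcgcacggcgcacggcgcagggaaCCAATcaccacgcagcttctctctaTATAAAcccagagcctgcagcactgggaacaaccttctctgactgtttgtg
Hist1h1t: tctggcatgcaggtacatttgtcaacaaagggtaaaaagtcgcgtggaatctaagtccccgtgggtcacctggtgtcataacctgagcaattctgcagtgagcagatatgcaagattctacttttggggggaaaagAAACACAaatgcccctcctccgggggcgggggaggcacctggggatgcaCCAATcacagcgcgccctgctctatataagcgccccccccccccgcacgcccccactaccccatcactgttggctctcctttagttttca

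RefSeq promoters of 300 bases (250 before and 50 after the start) were matched to 51 of the 54 members. TATAAA occurred in 31 of the 51 (60.8%), against 13.6% of all 32851 promoters of the same length. CCAAT occurred in 43 (84.3%), against 37.4% of all promoters, and was found in every H1, H2A, H2B and H3 promoter matched but in only 3 of 11 H4 promoters. The octamer ATTTGCAT was found in 10 promoters (19.6%, against 1.74% of all), 5 of H2A and 5 of H2B genes. Matches on either strand count, and head-to-head genes share promoter DNA, so 1 site can count for both genes. The octamers of Hist1h2ah and Hist1h2bk, of Hist1h2ae and Hist1h2bg, and of Hist1h2ba and Hist1h2aa are such shared sites. TATAAA and CCAAT sites can count for both genes in the same way, and shares without this were not computed. AAACACA was found in 9 (17.6%, against 7.18%), among them 5 of the 6 H1 promoters. GGTCCG was found in 12 (23.5%, against 8.25%), among them 10 of the 11 H4 promoters. Of 189 matches, 1 overlapped a match of another motif. Members with a peak in all 4 lists and members whose peak was missing only from Tnm2 with UNC0638 held TATAAA in 13 of 25 and in 12 of 18 promoters, and their median GC content was 45.7% and 44.3%.

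The 3′ stem-loop was searched as a perfect stem of 6 base pairs that starts with GG, around a loop of 4 bases that starts with TT, and was found in 51 of the 54 members. The most frequent form occurred in 33 members, with the stem in capitals and the loop in lower case, and the next forms in 8 and 7 members.
Form in 33 members: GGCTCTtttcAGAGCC
Form in 8 members: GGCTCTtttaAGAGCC
Form in 7 members: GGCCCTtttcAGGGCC
All 6 H1 genes and all 15 H2B genes held such a stem-loop, as did 12 of 13 H2A, 8 of 9 H3 and 10 of 11 H4 genes. No match was found in Hist1h2an, Hist1h3g and Hist1h4a, which says only that these letters are not in the sequence searched.

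A gene was counted as having a peak where a peak of the list overlapped the window of 1 kb on each side of an annotated transcript start. In CK1750 with DMSO, 52 of 54 members had a peak (96.3%, Wilson 95% interval 87.46 to 98.98%), where 48.6% of all protein-coding genes did. In CK1750 with UNC0638, 49 members had a peak (90.7%, 80.1 to 96.0%), against 47.8% of all genes. In Tnm2 with DMSO, 46 members had a peak (85.2%, 73.4 to 92.3%), against 47.7%. In these 3 lists the lower bound of each interval lay above the share of all genes. In Tnm2 with UNC0638, 28 members had a peak (51.9%, 38.9 to 64.6%), against 39.8%, and here the interval held the share of all genes. The intervals cover counting error only. They treat the members as independent, though neighbours often share a peak, so they are likely too narrow.

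**Figure D1:**
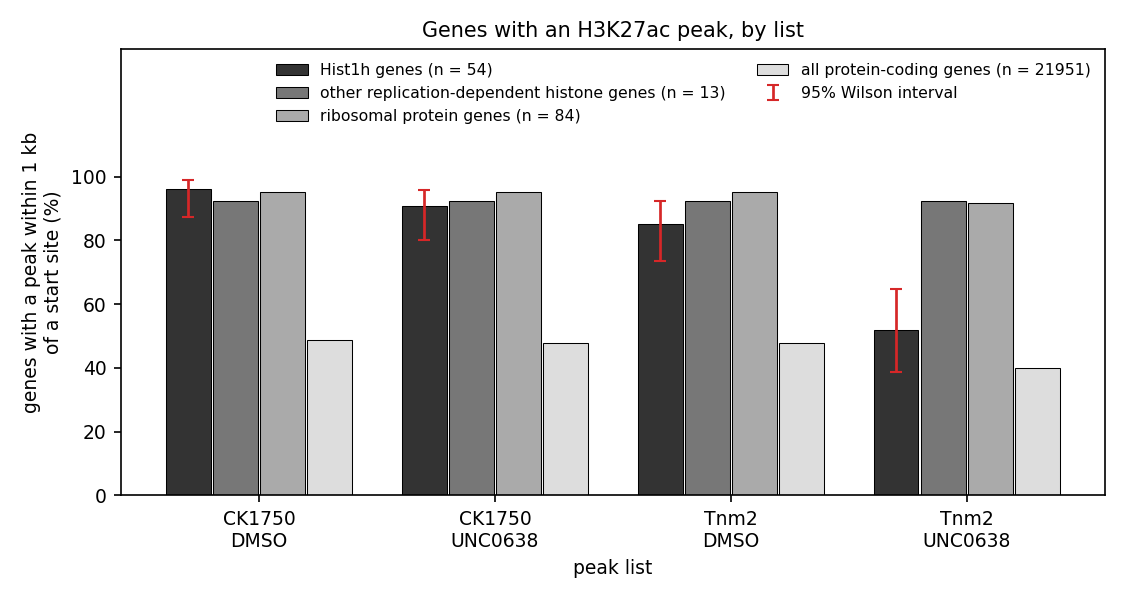
Bars give the percentage of genes with a peak within 1 kb of a start site (vertical axis) in each of the 4 lists, for the 54 Hist1h genes, 13 other replication-dependent histone genes, 84 ribosomal protein genes and all 21951 protein-coding genes. The red bars are 95% Wilson intervals of the Hist1h share, which was 96.3%, 90.7%, 85.2% and 51.9% from left to right while the other histone genes stayed at 92.3%.

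The pattern over the lists took few forms. A peak in all 4 lists was found at 28 members (51.9%, against 37.9% of all protein-coding genes). A peak in every list except Tnm2 with UNC0638 was found at 18 members (33.3%, against 5.97% of all genes). Hist1h4c, Hist1h2ab and Hist1h3b had a peak in both CK1750 lists and in neither Tnm2 list. Hist1h1a, Hist1h2ba and Hist1h2aa had a peak only in CK1750 with DMSO. Hist1h1d and Hist1h1t had none in any list at their GENCODE starts. No member had a peak in a Tnm2 list and none in the CK1750 list of the same treatment.

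**Figure D2:**
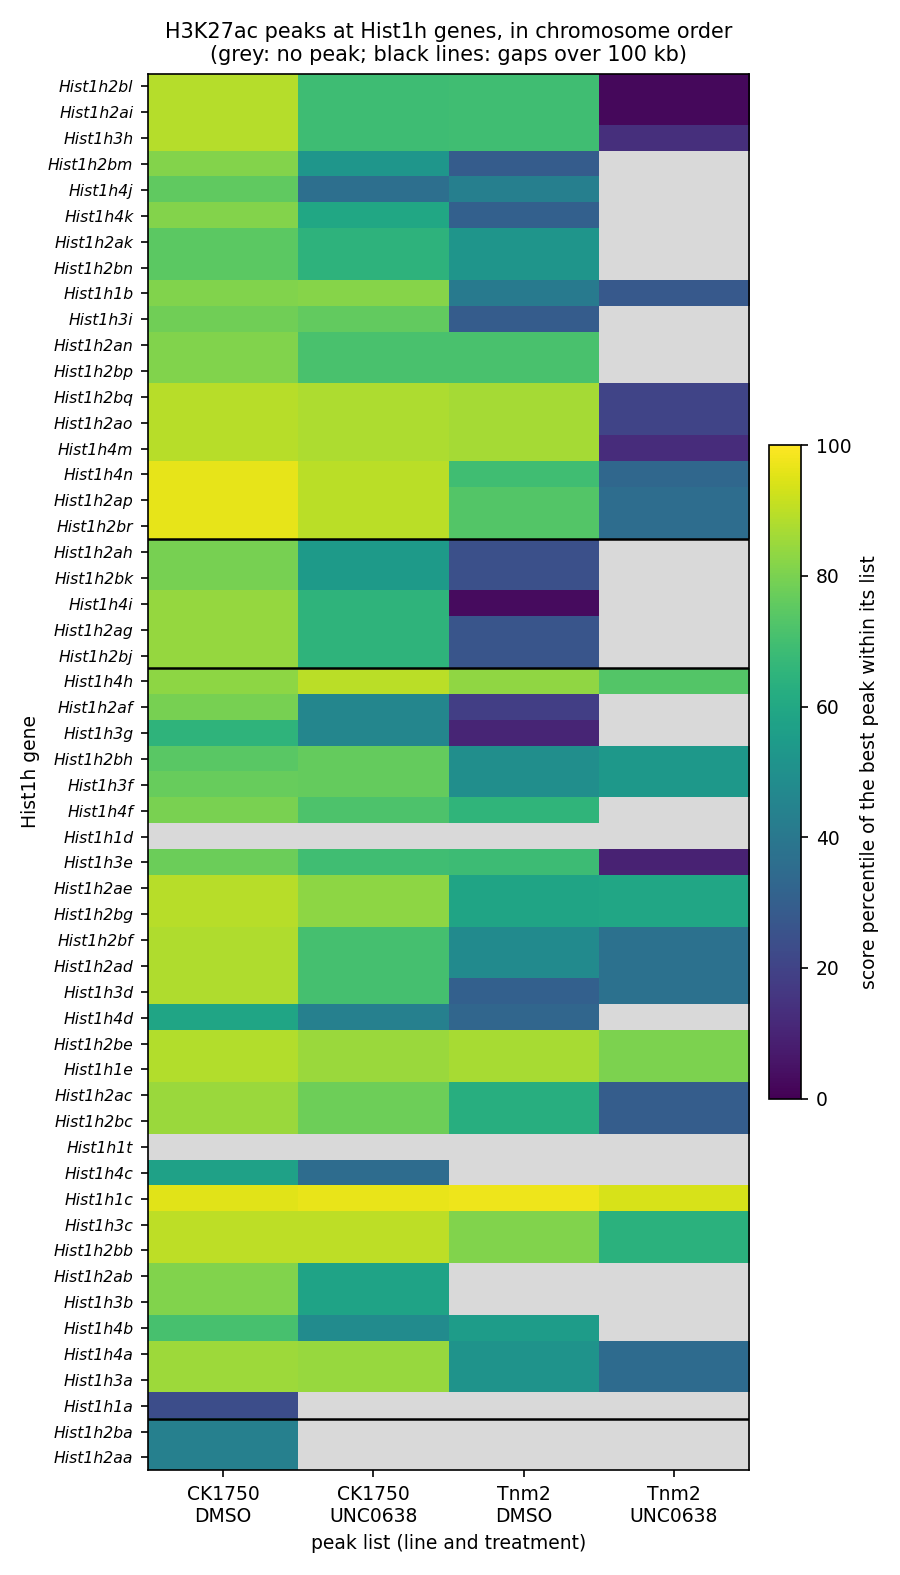
Each row is a Hist1h gene in chromosome order and each column a peak list, and the colour gives the percentile of the gene's best peak score within its list (scale 0 to 100). Grey cells are genes without a peak, of which there were 2, 5, 8 and 26 from left to right, and black lines mark gaps of over 100 kb between blocks.

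Scores are −10 log10 of the caller's P value and grow with depth, so they were turned into percentiles within a list, where 100 is the highest-scoring peak of that list. A percentile still depends on how many weak peaks its list holds, and the lists held 27367, 24601, 30641 and 18794 peaks. The part of list length in differences of percentile between lists was not tested. CK1750 medians at equal list length are given in the closing section. The median percentile of the best peak over the members with a peak was 83.7 (95% order-statistic interval 81.0 to 88.1) in CK1750 with DMSO and 71.1 (68.9 to 77.9) in CK1750 with UNC0638. It was 56.8 (47.9 to 69.2) in Tnm2 with DMSO and 35.8 (29.5 to 53.4) in Tnm2 with UNC0638. Over all protein-coding genes with a peak, the medians were 77.3, 74.0, 77.4 and 69.2 in the same order. The Hist1h genes thus ranked above all genes in CK1750 with DMSO and slightly below them in CK1750 with UNC0638. They ranked well below all genes in both Tnm2 lists. The best peak within 1 kb can lie at a neighbour and not at the gene itself. A member then has a higher percentile than its own peak would give, and the size of this effect was not computed. A score under 100, near the caller's cutoff of 50, was the best score of 1, 0, 12 and 18 members, and of 9.80%, 9.42%, 10.9% and 22.5% of all protein-coding genes with a peak.

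Among the linker histone genes, which encode the H1 proteins that bind DNA between nucleosomes, Hist1h1c had the highest-scoring peak of the cluster in every list except CK1750 with DMSO, where the peak over Hist1h4n, Hist1h2ap and Hist1h2br ranked higher (96.3). That peak lies in repeated sequence, described below. The percentile of Hist1h1c (chr13:23738808-23740367, plus strand) was 95.4 and 96.5 in CK1750 with DMSO and UNC0638, and 97.6 and 94.1 in Tnm2. Its peak was 3043, 3090, 3194 and 2673 bp wide and covered no other member. It was the only member at or above the 90th percentile in both Tnm2 lists and in CK1750 with UNC0638. Hist1h1e had percentiles of 88.5, 85.1, 86.8 and 80.2, and Hist1h1b of 81.0, 81.9, 40.9 and 27.8. H1 was the family without a peak lost between the Tnm2 lists, 3 genes having one in each. Hist1h1a had 1 peak, at percentile 23.8 in CK1750 with DMSO. Hist1h1t, the testis-specific H1 gene, had no peak in any list.

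Hist1h1d had no peak at its GENCODE start (position 23553262), but RefSeq places its start 1770 bases downstream, at 23555032. At the RefSeq start, whose promoter is printed above, each of the 4 lists had a peak, of 1666 and 2004 bp in CK1750 and 1406 and 1451 bp in Tnm2. The percentiles of these peaks were 87.6, 91.0, 89.5 and 74.0. With RefSeq starts for all members, an alternative chosen after the data were seen, the numbers with a peak were 53, 50, 47 and 29.

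The H2A and H2B genes, whose proteins form the dimers of the nucleosome core, made up 28 of the 54 members. Of 13 H2A genes, 13 and 12 had a peak in CK1750 with DMSO and UNC0638, and 11 and 6 in Tnm2. Of 15 H2B genes, 15 and 14 had one in CK1750, and 14 and 9 in Tnm2. In each family, 5 genes lost their peak between the Tnm2 lists. Hist1h2ap, the H2A gene of highest mean percentile (chr13:21833026-21833507, minus strand), went from 96.3 to 89.6 in CK1750 and from 73.3 to 35.8 in Tnm2. The sequence about its start is a copy of that of Hist1h2ao, as described below, so its rank above Hist1h2ao cannot be assigned to this copy. Hist1h2be, the H2B gene of highest mean percentile, had the values of Hist1h1e in every list, because the peak of Hist1h1e lies within 1 kb of its outermost GENCODE start (position 23621124). That peak covered this start only in CK1750 with UNC0638. In CK1750 and Tnm2 with DMSO a separate peak covered it, at percentiles of 24.4 and 34.6, and in Tnm2 with UNC0638 none did. The Hist1h2be record runs from 23583670 to 23621124, and its only stem-loop match lies near the far end, at 23585531.

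The H3 genes, which encode the histone that carries the acetylated lysine 27, had a peak at 9 and 9 of 9 members in CK1750 and at 8 and 6 in Tnm2. Hist1h3c had the highest mean percentile of the family, with 89.97, 89.86, 80.9 and 63.8 over the lists. Its best peak in each list was also that of the H2B gene Hist1h2bb. That peak covered the Hist1h3c start only in CK1750 with UNC0638. The H4 genes had a peak at 11 and 11 of 11 members in CK1750 and at 10 and 4 in Tnm2, the largest drop of any family by number. Hist1h4h (chr13:23531050-23531519) kept percentiles of 83.1, 89.6, 83.5 and 73.3, and was the first member of the third block. At Hist1h4c the 2 CK1750 peaks, 519 and 573 bp wide, had percentiles of 57.2 and 35.3.

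With UNC0638, no member gained a peak in either line. Only 2 members in CK1750 and 8 in Tnm2 had no DMSO peak and could gain one. Of all protein-coding genes 1.52% gained a peak in CK1750 and 0.601% in Tnm2. With so few members able to gain a peak, this comparison cannot tell the members from all genes. In CK1750, 3 members (5.77% of the 52 with a DMSO peak, interval 1.98 to 15.6%) lost theirs, Hist1h1a, Hist1h2aa and Hist1h2ba, where 2.34% of all genes, or 4.82% of those with a DMSO peak, lost one. The interval holds the value of all genes. In Tnm2, 18 members (39.1% of 46, 26.4 to 53.5%) lost theirs, where 8.53% of all genes, or 17.9% of those with a DMSO peak, lost one. The Tnm2 interval lies above the value of all genes, but it treats the members as independent. Of the 18, 8 were in head-to-head pairs that lost a shared peak together, so the interval is likely too narrow. When each list was shortened to its 18794 highest-scoring peaks, the Tnm2 count of lost peaks fell to 7, and 34 members had a peak with DMSO and 28 with UNC0638. The share lost was then 20.6% of the 34 (interval 10.3 to 36.8%), against 10.49% of all protein-coding genes with a DMSO peak at the same list length, so the interval held the value of all genes. Hist1h3d was counted as gaining a peak in Tnm2 at this length, but that peak lay on Hist1h2ad and did not overlap Hist1h3d. The UNC0638 list of Tnm2 is also the shortest of the 4, with 18794 peaks against 30641 with DMSO, 27367 in CK1750 with DMSO and 24601 in CK1750 with UNC0638.

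In Tnm2 the median DMSO percentile was 29.9 for the 18 members that lost their peak and 69.2 for the 28 that kept it. By band of the DMSO percentile, members lost their peak in 5 of 5 cases from 0 to 25, 7 of 13 (53.8%) from 25 to 50, 6 of 19 (31.6%) from 50 to 75 and 0 of 9 above 75. All protein-coding genes lost theirs in 80.3%, 60.8%, 18.2% and 0.606% of cases in the same bands. Within bands the members thus lay on both sides of all genes, and over all bands their lower DMSO percentiles moved with the count of lost peaks. The part of the percentiles in that count was not tested. In CK1750 the DMSO peaks of 42 members lay above the 75th percentile, and 0 of these were lost.

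**Figure D3:**
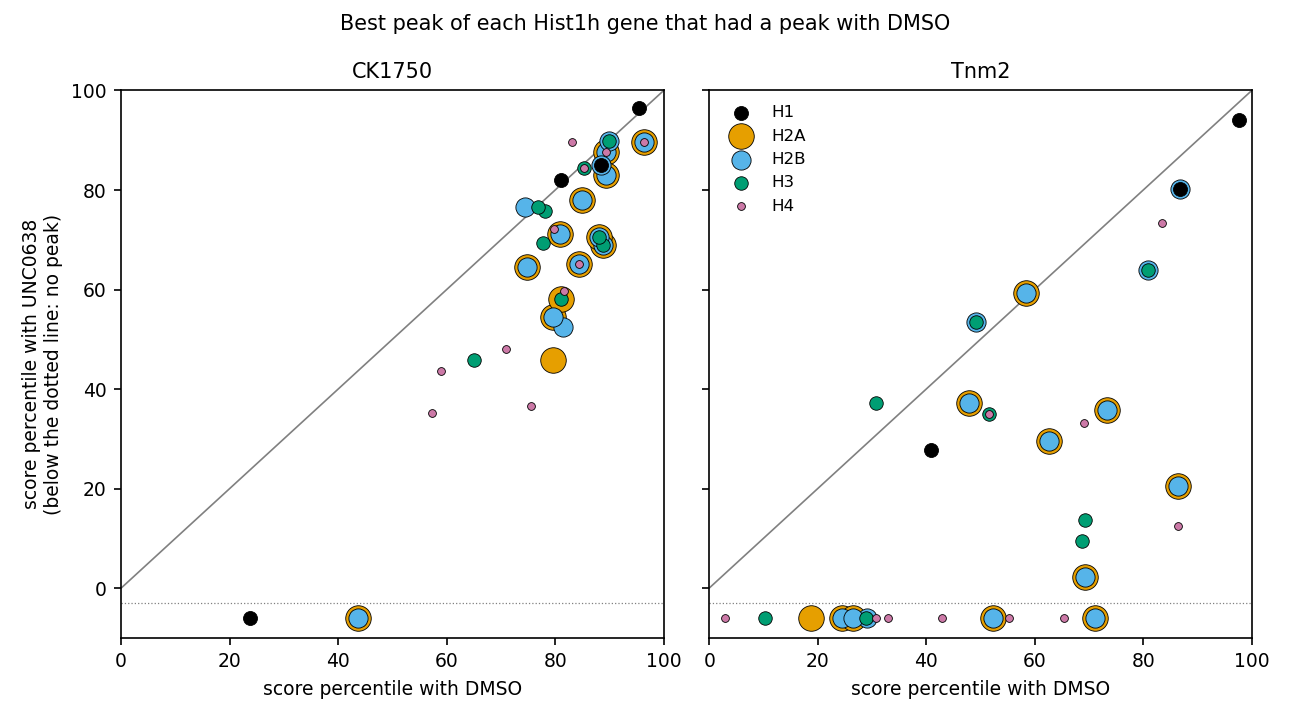
For each Hist1h gene with a peak with DMSO, the score percentile of its best peak with DMSO (horizontal axis) is set against that with UNC0638 (vertical axis), in CK1750 (left) and Tnm2 (right), and genes below the dotted line had no peak with UNC0638. Marker size differs between the families only to show genes that share a peak, and the points below the diagonal, 45 of 49 genes with both peaks in CK1750 and 23 of 28 in Tnm2, ranked lower with UNC0638.

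Where a member kept its peak, the peak mostly ranked lower in the UNC0638 list. In CK1750 the percentile was lower with UNC0638 at 45 of 49 members, with a median difference of -9.82 points, where it was lower at 66.4% of all genes with both peaks and the median difference was -2.33. In Tnm2 it was lower at 23 of 28 members, with a median difference of -16.8 points, against 89.3% of all genes and -9.48. Neighbours that share a peak share these values, so the members are not independent points. By the best peak within 1 kb, the genes that ranked higher with UNC0638 were Hist1h1b, Hist1h1c, Hist1h2bh and Hist1h4h in CK1750. In Tnm2 they were Hist1h2bh, Hist1h3f, Hist1h2ae, Hist1h2bg and Hist1h3d. The Tnm2 DMSO peak used for Hist1h2bh and Hist1h3f lay on Hist1h2bh, and the UNC0638 peak on Hist1h3f. Both Tnm2 peaks used for Hist1h3d lay on Hist1h2ad. The DMSO peaks on Hist1h2bh and Hist1h3d themselves, at 49.2 and 5.67, had no counterpart on those genes with UNC0638.

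The lines differed at the same genes in one direction. With DMSO, the percentile was higher in CK1750 than in Tnm2 at 44 of the 46 members with a peak in both, and the median difference was 24.1 points. The exceptions were Hist1h1c and Hist1h4h. Over all genes with a peak in both lines, 51.4% were higher in CK1750 and the median difference was 0.181 points. With UNC0638, 28 of 28 members were higher in CK1750, by a median of 48.5 points, against 75.1% of all genes and 6.31 points. With 1 list for each line and treatment, a difference between lines cannot be told apart from one between preparations. The percentiles also depend on the length of each list.

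By block, the losses in Tnm2 did not fall evenly. All 18 genes of the first block had a peak in the first 3 lists and 10 did in Tnm2 with UNC0638. The second block, Hist1h2ah, Hist1h2bk, Hist1h4i, Hist1h2ag and Hist1h2bj, had a peak at all 5 genes in the first 3 lists and at 0 in Tnm2 with UNC0638. Its median percentile had been 84.3 and 65.0 in CK1750 and 24.5 in Tnm2 with DMSO. The third block had a peak at 27, 26, 23 and 18 of its 29 genes. The 8 genes of the first block that lost their peak, Hist1h2bm, Hist1h4j, Hist1h4k, Hist1h2ak, Hist1h2bn, Hist1h3i, Hist1h2an and Hist1h2bp, were neighbours, with Hist1h1b the one gene among them to keep a peak.

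The values of these neighbours before the loss differed widely. In Tnm2 with DMSO the H2B gene Hist1h2bm was at percentile 29.2, after 81.5 and 52.5 in CK1750 with DMSO and UNC0638. These peaks lay upstream of its start, which in CK1750 with DMSO was under another peak, at 55.8. The H4 genes Hist1h4j and Hist1h4k were at 43.0 and 30.7 in Tnm2 with DMSO, and at 75.6 and 81.6 in CK1750 with DMSO. Hist1h2ak and Hist1h2bn, a head-to-head pair, shared a peak at 52.2, and the H3 gene Hist1h3i was at 28.97. Hist1h2an and Hist1h2bp, another pair, shared the widest of these peaks, 1484 bp at percentile 71.1, which was the highest percentile of any member that lost its peak. In the third block the best peak of both Hist1h2ab and Hist1h3b was 711 bp at percentile 81.1 in CK1750 with DMSO. With UNC0638 it was 837 bp at 58.2, and Tnm2 had none. In both CK1750 lists it lay on Hist1h2ab and did not overlap Hist1h3b. The peaks on Hist1h3b itself were at 65.9 with DMSO and 50.8 with UNC0638.

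The distant pair, Hist1h2ba and Hist1h2aa, encodes testis histones. A single peak of 364 bp at percentile 43.6 lay at the pair in CK1750 with DMSO, over neither start site but within 1 kb of both. The other 3 lists had none. Together with Hist1h1t, the testis genes thus had a peak at 2 of 3 members in 1 list and at 0 in the others.

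Several members often had the same peak within 1 kb of their starts. The lists had 48, 39, 42 and 20 distinct peaks at members, of which 21, 19, 20 and 14 lay within 1 kb of the starts of several members. These are called peaks over several members, though they need not overlap each gene. Where a peak had to cover the starts themselves, 7, 12, 3 and 1 peaks did so for several members. The peaks within 1 kb reached 37, 37, 32 and 24 members. Of all protein-coding genes, 12.2%, 12.2%, 11.7% and 10.1% shared a peak with another gene. No peak reached more than 3 members, and 5, 5, 4 and 4 peaks reached 3. How much of the sharing follows from the spacing of the genes was not tested.

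Of the 54 members, 24 formed 12 head-to-head pairs with starts at most 1 kb apart, 11 of an H2A and an H2B gene and 1 of an H2B and an H3 gene. The starts lay 176 to 660 bp apart, with a median of 269 bp. In every list both genes of a pair had a peak or neither had, in 12, 11, 11 and 7 pairs, and in each case the same peak served both. Starts this close have overlapping windows, so a peak near one start mostly counts for both. Of the pair members 24, 22, 22 and 14 had a peak, and of the other 30 members 28, 27, 24 and 14.

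The widest peak over several members in CK1750 lay over Hist1h4n, Hist1h2ap and Hist1h2br, 3449 bp wide with DMSO (chr13:21831397-21834845) and 3538 bp with UNC0638. In Tnm2 with DMSO the same stretch held separate peaks, the best of them 899 bp at Hist1h4n and 1242 bp at Hist1h2ap and Hist1h2br. With UNC0638 the best were 818 and 774 bp. Of these genes, the Tnm2 peaks of 1242 and 774 bp overlapped only Hist1h2br, and that of 818 bp only Hist1h2ap. The other CK1750 peaks counted at 3 genes lay within 1 kb of the starts of these groups. They were Hist1h2bl, Hist1h2ai and Hist1h3h (1863 and 1618 bp with DMSO and UNC0638), and Hist1h2bq, Hist1h2ao and Hist1h4m (2233 and 2581 bp). Further groups were Hist1h4i, Hist1h2ag and Hist1h2bj (1640 and 1539 bp), and Hist1h2bf, Hist1h2ad and Hist1h3d (1787 and 1778 bp). The peaks so counted for Hist1h3h, Hist1h4i and Hist1h3d did not overlap those genes. Nor did the 2233 bp peak with DMSO overlap Hist1h2bq, or the 2581 bp peak with UNC0638 overlap Hist1h4m. The same 5 groups of genes had a peak within 1 kb of all 3 starts in both CK1750 lists. In Tnm2 with UNC0638 the peak within 1 kb of the starts of Hist1h2bl, Hist1h2ai and Hist1h3h was 596 bp wide. It overlapped only Hist1h2ai of these genes and was at percentile 2.17, near the end of the list.

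The median width of the distinct peaks at members was 836 bp (order-statistic interval 770 to 1036) in CK1750 with DMSO and 1262 bp (875 to 1618) with UNC0638. In Tnm2 it was 702.5 bp (607 to 792) with DMSO and 781.5 bp (686 to 971) with UNC0638. Peaks within 1 kb of any protein-coding start had medians of 1104, 1281, 1096 and 1151 bp, so the distinct peaks at members had lower medians in all 4 lists, by little in CK1750 with UNC0638. Counted by gene, as the width of the best peak of each gene, the order turned in CK1750. The medians over members were then 1452, 1618, 826.5 and 803.5 bp, against 1231, 1388, 1234 and 1206 bp over all protein-coding genes with a peak. Peaks over several members had medians of 942, 1618, 776.5 and 781.5 bp, and peaks at 1 member of 786, 919, 649 and 855.5 bp. For the members with a peak in both lists of a line, the best peak was wider with UNC0638 at 36 of 49 in CK1750 (median difference 162 bp) and at 11 of 28 in Tnm2 (-47 bp). All genes with both peaks gave 66.9% and 34.6% wider, with median differences of 100 and -92 bp.

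**Figure D4:**
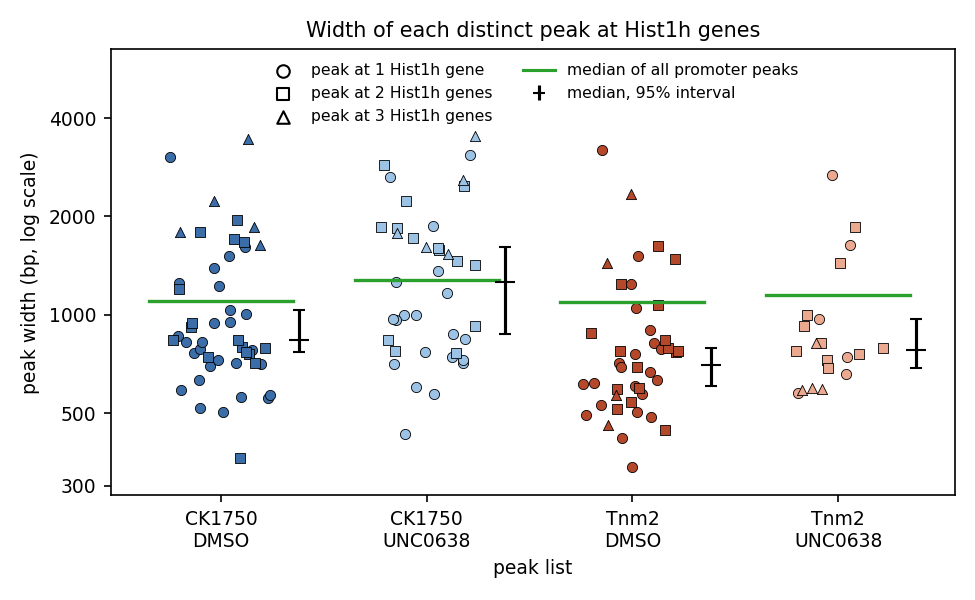
Each point is a distinct peak at Hist1h genes and its width in bp (vertical axis, log scale) by list, with the marker showing whether 1, 2 or 3 members lay within 1 kb. Black bars are medians with 95% order-statistic intervals (836, 1262, 702.5 and 781.5 bp) and green lines the medians of all promoter peaks (1104, 1281, 1096 and 1151 bp).

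The peaks lay differently about the start sites in the lines. Taking the 5′ end of each gene record, the start itself was under a peak at 45 of the 52 members with a peak in CK1750 with DMSO (86.5%) and at 48 of 49 with UNC0638 (98.0%). In Tnm2 it was under a peak at 30 of 46 (65.2%) with DMSO and at 12 of 28 (42.9%) with UNC0638. Over all protein-coding genes with a peak, the start was covered in 85.3%, 89.1%, 83.4% and 85.1%, so the members stood below all genes in Tnm2 only. The start lay uncovered between a peak on each side at 4, 0, 6 and 5 members (7.69%, 0%, 13.04% and 17.9%), against 2.15%, 1.00%, 2.11% and 1.06% of all genes. Hist1h3f, Hist1h2bc, Hist1h3c and Hist1h3b were the 4 such genes in CK1750 with DMSO, and all 4 starts were under a peak with UNC0638. At Hist1h3f, Hist1h2bc and Hist1h3b the upstream peak lay on a neighbour, namely Hist1h2bh, Hist1h2ac and Hist1h2ab. More than 1 peak within 1 kb was seen at 22, 14, 20 and 10 members (42.3%, 28.6%, 43.5% and 35.7%), against 11.8%, 7.07%, 11.2% and 6.39% of all genes. Peaks of close neighbours can count in both measures, and the part of gene spacing in them was not tested.

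**Figure D5:**
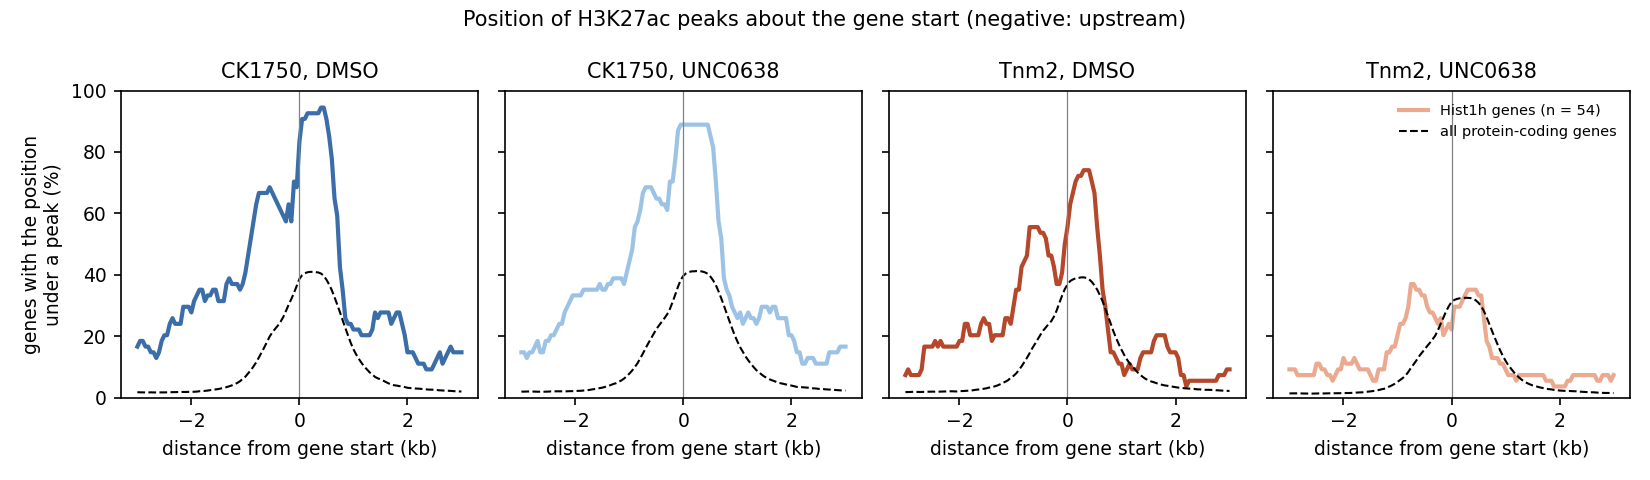
Percentage of genes for which a position lies under a peak (vertical axis) against the distance from the gene start in kb (negative is upstream), for the 54 Hist1h genes (coloured) and all protein-coding genes (dashed), 1 panel per list. At the start the Hist1h value was 83.3%, 88.9%, 55.6% and 22.2% from left to right, and the Hist1h curves dip at or just upstream of the start, between an upstream and a downstream maximum.

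With DMSO, the share of all 54 members under a peak was highest 400 bp downstream in CK1750 (94.4%) and 300 bp downstream in Tnm2 (74.1%). In CK1750 with UNC0638 it was highest, at 88.9%, from 50 bp upstream to 450 bp downstream. All protein-coding genes also had their maximum downstream, at 250, 250, 300 and 200 bp in the order of the lists. In Tnm2 with UNC0638 the share of members was highest 750 bp upstream (37.0%), where the start itself was under a peak at 22.2% of members. Over all protein-coding genes the start was under a peak at 38.7%, 39.7%, 36.9% and 31.2%. The upstream signal of one gene of a head-to-head pair is the downstream signal of the other.

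The sequence of the cluster is partly repeated, which bears on where reads can be placed. Of the 38-base windows within 1 kb of a member's start, 70.6% occurred once in the reference genome, against 91.7% for 784 other protein-coding genes of chromosome 13. With 75-base windows the shares were 75.7% and 95.4%. At 6 members under 50% of the 38-base windows were unique, namely Hist1h2bq, Hist1h2ao, Hist1h4m, Hist1h4n, Hist1h2ap and Hist1h2br. At 4 of them none was unique, and the windows of Hist1h2ao and Hist1h2ap, whose starts lie 23.0 kb apart, were identical over 1971 bases. Reads of these genes cannot be assigned to a copy by sequence, and how such reads were treated in peak calling is not given in the sources used here. The 6 genes all had a peak in every list, and the widest shared peak described above lies on them.

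Without these 6 genes the counts held. A peak was found at 46, 43, 40 and 22 of the other 48 members (95.8%, 89.6%, 83.3% and 45.8%), and the median percentiles were 81.3, 70.6, 51.9 and 37.3. The losses were then 3 of 46 in CK1750 and 18 of 40 in Tnm2 (Wilson interval 30.7 to 60.2%). The 18 members that lost their peak in Tnm2 had 66.2 to 92.1% unique windows, with a median of 76.5%, and the 28 with a peak in all lists had a median of 68.4%. The coding sequences themselves are near copies within a family. The 11 H4 genes have 10 distinct coding sequences of 309 bases with a median identity of 95.1%, and the median was 98.2% within H2A, 97.9% within H2B and 97.8% within H3, for genes of equal length.

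The other replication-dependent histone genes, on other chromosomes, gave other values. Of 13 such genes 12 had a peak in each list, with median percentiles of 93.3, 94.0, 90.8 and 86.6, and 0 lost it in either line. Hist3h2ba was the gene without one. Hist2h2aa1, for example, had percentiles of 98.8, 94.3, 90.2 and 85.6, and the lowest of the list in Tnm2 with DMSO were Hist2h2bb and Hist2h3b, which share a peak at 22.1. These 13 genes also hold repeated copies, and their share of unique windows was not computed. The protein-coding genes of chromosome 13 outside the cluster (784) had a peak at 398, 392, 394 and 330, and 16.5% of those with a DMSO peak in Tnm2 lost it. Of 49 other protein-coding genes that lie within the span of the cluster, 4, 4, 5 and 4 had a peak. Most of these genes were Vmn1r genes, none of which had a peak in any list. Abt1, Hfe, Zfp184 and Zfp322a had a peak in every list.

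Genes that act on the histone genes were listed for comparison. Npat, the coactivator of histone transcription in S phase, had percentiles of 83.5, 84.4, 78.5 and 68.2. Of 7 transcription genes of this kind, 6, 6, 6 and 3 had a peak, Ccne1 had none in any list, and Casp8ap2, Ccne2 and Cdk2 lost theirs in Tnm2. Of 8 genes of histone mRNA 3′ processing, 8, 8, 7 and 5 had a peak, with Cpsf3, Lsm11 and Sympk losing theirs in Tnm2 and Lsm10 having one at percentile 2.80 with UNC0638 and none with DMSO. Slbp, the stem-loop binding protein, had percentiles of 87.5, 82.9, 87.6 and 83.5. Of 12 histone variant genes, which are expressed outside S phase as well, 10, 10, 9 and 7 had a peak, Cenpa and H2afv lost theirs in Tnm2, H1foo and H2afy2 had none, and H1f0 ranked at 98.8, 99.04, 99.6 and 99.6. Of 84 ribosomal protein genes, another set of highly expressed housekeeping genes, 80, 80, 80 and 77 had a peak, with medians of 85.2, 84.6, 88.2 and 85.8, and 3 (3.75%) lost it in Tnm2. Of 39 Hox cluster genes, 0, 0, 0 and 1 had a peak. Whether any regions were left out of the lists is not known, so these counts need not mean that the mark was absent.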

How the data were processed

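H3K27ac was mapped by chromatin immunoprecipitation and sequencing in CK1750 and Tnm2 cells with DMSO or 1 µM UNC0638. According to the study's methods and the submitters' processing notes, the authors aligned reads to mm10 with Bowtie2, used SAMtools, and called peaks with MACS 1.4.2, keeping those with a P value up to 1e-05 and leaving the other settings at default. The deposited lists give position and score, and the score is −10 log10 of the caller's P value as the authors' peak caller wrote it, so the cutoff is a score of 50. Pooling of a group's libraries was inferred from the labels. For signal tracks, which were not used here, the methods mention scaling to the number of uniquely alignable reads. Whether input DNA was the control, and how reads that match several places were treated in peak calling, is not given in the sources used here. Depth is unknown.

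Samples were grouped by line, treatment and mark from their labels. Start sites came from GENCODE release M21 (all annotated transcript starts), and a peak belonged to a gene where it overlapped 1 kb on each side of a start. For each gene the best peak is the one with the highest score. Percentiles are ranks of the score among all peaks of the same list. Shares carry Wilson 95% intervals and medians order-statistic 95% intervals, which cover counting error only. They treat members as independent, though neighbours often share a peak. No test between groups was run, since each group has 1 list. Members and gene lists were chosen with earlier results of these data known. Named genes were, by rule, the member of each family with the highest mean percentile, members without a peak in at least 1 list (15 at most, those missing from most lists first), the testis genes and the members under the peaks with most members, and for the other lists the genes without a peak and up to 5 more. Other genes and pairs named were chosen after their values were seen.

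Uniqueness is the share of 38-base windows (the read length in the methods, for both ends of a fragment) within 1 kb of the 5′ end of the gene that occur once, on both strands, in the reference (66 sequences, patches and alternate loci left out), with 75 bases (the length in the labels) as the alternative. Sequences came from RefSeq, GRCm38.p6. The gene assignment was tested on simulated peaks at 800 genes and gave the planted result in 15 of 15 combinations of window and distance. Alternatives were a window of 0 or 2.5 kb, gene ends only, a score of at least 100, equal list lengths, joined peaks, and ranks among promoter peaks. RefSeq starts and leaving out the 6 repeated genes were added after the data were seen. Python 3.11.15, numpy, pandas and scipy were used. The H3K9me2 and input samples were not analysed here.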

Additional observations from a re-analysis of the deposited data

Results flagged for a closer look

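The summed width of the peaks at Hist1h genes moved in opposite directions with UNC0638 in the lines. In CK1750 it was 53.3 kb over 48 peaks with DMSO and 55.7 kb over 39 peaks with UNC0638, a difference of 2.378 kb. In Tnm2 it was 36.6 kb over 42 peaks and 19.6 kb over 20 peaks, a difference of -16.95 kb. The difference between the lines was not tested, since each line and treatment has 1 list. Of 6 measures set side by side in this way, the other 5 moved in the same direction in both lines. The summed width of all peaks of a list also moved in opposite directions, as the lists covered 28.5 and 31.6 Mb in CK1750 and 31.8 and 22.9 Mb in Tnm2 with DMSO and UNC0638. The number of peaks at members fell in both lines, and their median width was higher with UNC0638 in CK1750 as in Tnm2.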

How the results depend on the processing

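No paired analysis was possible because a group has a single pooled list of peaks, and for the same reason no replicate could be left out. Over 27 results, 199 alternative values were computed, of which 162 stayed within the interval of the reported value, within 1.5 times the reported count, or on the same side of zero. Leaving out the 6 repeated genes and using gene 5′ ends or RefSeq starts moved none beyond these limits. Where a peak had to cover the start itself, the shares were 83.3% in CK1750 with DMSO and 55.6% and 22.2% in Tnm2 without and with UNC0638. The numbers of peaks over several genes were then 7, 12, 3 and 1 in the order of the lists, members with a peak only with UNC0638 numbered 5 in CK1750 and 2 in Tnm2, and the CK1750 share was 5.56 points higher with UNC0638 than with DMSO, the reverse of the reported direction. With windows of 2.5 kb, 100% of members in CK1750 with DMSO and 96.3% with UNC0638 had a peak, and 39, 30 and 34 peaks lay over several members in CK1750 with DMSO, CK1750 with UNC0638 and Tnm2 with DMSO. With a score of at least 100, the share was 63.0% in Tnm2 with DMSO and 18.5% with UNC0638, the median widths 836 and 1539 bp, and Tnm2 with UNC0638 had 4 peaks over several members and a median percentile of 63.8. With lists of equal length, the median percentile was 77.2 and 62.2 in CK1750, the Tnm2 DMSO share was 63.0% with a median width of 836 bp, 7 members lost and 1 gained a peak in Tnm2, and the median width in Tnm2 was lower with UNC0638 (-54.5 bp) where it was reported as higher. Joining peaks within 1 kb gave median widths of 1840.5, 2207, 1441 and 1539 bp. Ranking among promoter peaks gave median percentiles of 69.2, 53.1, 34.5 and 22.7, in the same order. With 75-base windows the unique share was 75.7%. The causes of these shifts were not tested. Unknown depth and a list that ends at a cutoff limit every count of lost peaks, and the 1 list of a group gives no error for a difference.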
